A study of Malus domestica with 36 samples.

Results

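In the peel of stored 'Granny Smith' apples, 100 genes were high at time T1 in fruit kept at low oxygen without the label tag SL, and lower in every other group, low oxygen at T1 with SL included. They are called the early low oxygen genes here. The level of each of 57423 genes was averaged as log2(FPKM + 1) in each of 12 groups, where FPKM is a read density, corrected for gene length and for the size of the library. Among the 16504 genes with a highest group mean of 10 FPKM or more, a score took the lower of the means of the T1_DCA_CF and T1_ULO groups less the highest mean of the other 10 groups. The 100 highest scores were taken after 8 genes had been set aside, none of which had a score as high as the lowest member. The values of T1_DCA_CF and T1_ULO against the other 10 groups therefore chose the members, and are given below as a description, with no test.

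The 36 libraries came from peel of 1 cultivar, with 3 biological replicates in each group. Storage was under DCA_CF at under 1% oxygen, ULO at 1% oxygen or RA, each with and without the tag SL and at the times T2 and T1. The groups are T1_DCA_CF and T1_ULO, then T2_DCA_CF_SL, T2_ULO_SL, T2_RA_SL, T2_DCA_CF, T2_ULO, T2_RA, T1_DCA_CF_SL, T1_ULO_SL, T1_RA_SL and T1_RA. The labels do not expand RA, SL or CF, do not give the length of storage at T1 or T2, and do not say how many fruits went into a library. DCA_CF and ULO are called low oxygen below. Peel is a mixed tissue, and in such bulk samples fewer cells of a type and less RNA per cell cannot be told apart.

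When oxygen is scarce, plant cells make less ATP by respiration and rely more on glycolysis and fermentation. In Arabidopsis, AP2/ERF transcription factors of the ERF-VII group are kept stable at low oxygen and switch on a core set of genes for fermentation and for sugar breakdown. Apples are stored at low oxygen because it slows respiration, ethylene action and ripening, and, in scald-prone cultivars such as 'Granny Smith', the browning of the peel called superficial scald. GLB1 and the alcohol dehydrogenase gene LOC103428551 (synonym Adh1-1), well-known genes of this kind, were set aside by the rule and are not members.

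All genes together summed to between 689868 and 790211 FPKM in a library, with 33512 to 37276 genes above 0. The number of reads is unknown, and so no counting error can be given, but the spacing of low values put the libraries' relative depths between 0.934 and 1.25. Of the peel markers, GPAT, a glycerol-3-phosphate acyltransferase symbol, averaged 10.04 FPKM in T1_DCA_CF, 7.76 in T1_ULO and 1.41 to 9.15 in the other groups. The other, the GDSL gene LOC103421823 (synonym MdGDSL), averaged 23.3 FPKM in T1_DCA_CF, 49.8 in T1_ULO and 5.11 to 198 in the other groups. Of the sieve element genes of phloem, SEOa was listed at 0 in every library, and SEOb in every library but 1 of T2_ULO. The summed mitochondrial rRNAs, the small and the large one, ran from 431 to 472 FPKM in T1_DCA_CF and from 341 to 427 FPKM in T1_ULO. The same sum ran from 74.9 to 1051 FPKM in the other groups, with the highest values in T1_RA and the lowest in T1_ULO_SL. The part of peel cell makeup and of rRNA in the results was not tested.

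The early low oxygen genes had a median over members of 49.8 FPKM in T1_DCA_CF and 49.5 FPKM in T1_ULO. Among the other groups the median was highest in T2_DCA_CF at 5.86 FPKM, then 4.45 in T2_ULO, 3.24 in T1_RA, 3.03 in T1_DCA_CF_SL, 2.64 in T2_RA, 1.35 in T1_ULO_SL and 1.28 in T1_RA_SL. It lay under 1 FPKM in the 3 groups at T2 with SL, at 0.674 in T2_DCA_CF_SL, 0.724 in T2_ULO_SL and 0.927 in T2_RA_SL. The 3 libraries of a group lay close together: the median over members was 49.5 to 50.3 FPKM in the T1_DCA_CF libraries, 45.3 to 50.2 in the T1_ULO libraries and 3.05 to 3.31 in the T1_RA libraries. As a share of all summed FPKM, the 100 genes made up 2.82% ± 0.0309 in T1_DCA_CF and 2.27% ± 0.00909 in T1_ULO (SD, n = 3 libraries each). In the other groups the share ran from 0.0714% in T2_DCA_CF_SL to 0.298% in T2_DCA_CF.

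**Figure D1:**
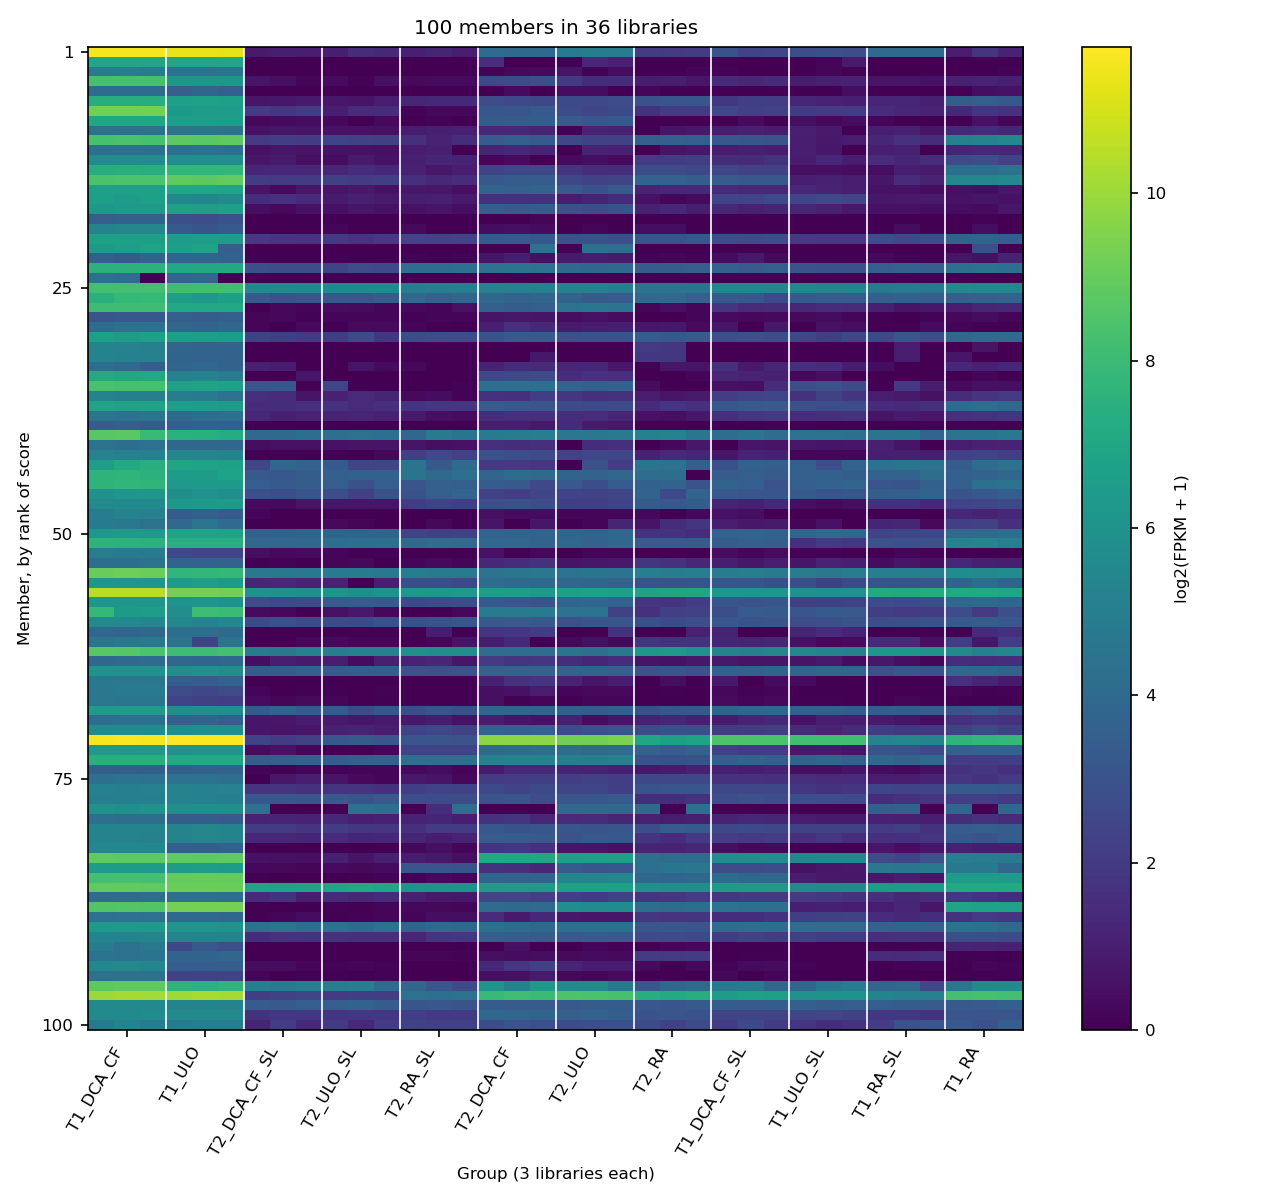
Levels of the 100 early low oxygen genes as log2(FPKM + 1) (colour) in each of 36 libraries (columns, 3 per group), with members in rows by rank of score. The 6 libraries of T1_DCA_CF and T1_ULO stand out in almost every row, and the 9 libraries at T2 with SL hold the darkest columns, where the median member is under 1 FPKM.

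The group next below the T1 low oxygen groups differed among members. For 36 members it was T2_DCA_CF, for 27 it was T1_RA, for 10 it was T2_RA and for 9 it was T2_ULO. A group with SL was next for the remaining members except LOC103412187, which was at 0 in all 10 other groups. Every library of T1_DCA_CF and T1_ULO lay above every library of the other groups for 98 members, the exceptions being LOC103411406 and LOC103412187, whose values include zeros beside high replicates. Since the rule asked for this order, the count describes the members and nothing more. The differences that the rule used had medians over members, on the log2(FPKM + 1) scale, of 3.14 for T1_DCA_CF minus T1_RA and 2.73 for T1_ULO minus T1_RA. With SL, the same regimes at T1 lay lower by medians of -3.83 in DCA_CF and -3.46 in ULO, and at T2 without SL by medians of -3.33 in DCA_CF and -2.93 in ULO.

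Few members have a name. The table gives a symbol to 4 of the 100 (CYCD3, IAA8, SS and rps14), and a RefSeq gene table of apple gives a synonym to 2 more, LOC103439715 (AP2D16) and LOC103410495 (AP2D17 and AP2D58). That table holds 70 of the 100 members, of which 66 are protein coding, 2 are pseudogenes and 2 are lncRNAs. It holds 76.5% of the genes with a highest group mean of 10 FPKM or more.

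Both AP2/ERF members, genes of a plant family of DNA-binding transcription factors that answer to ethylene and stress, were low outside the T1 low oxygen groups. AP2D16 (LOC103439715) had 18.2, 18.1 and 19.9 FPKM in T1_DCA_CF and 12.9, 11.8 and 12.3 FPKM in T1_ULO, against 1.48, 1.04 and 0.990 FPKM in T1_RA. LOC103410495 had 20.9, 21.6 and 20.8 FPKM in T1_DCA_CF and 15.6, 15.4 and 14.4 FPKM in T1_ULO, against 2.28, 2.85 and 2.37 FPKM in T1_RA. For both genes every DCA_CF library lay above every ULO library, while the gap to RA is what the rule chose. With SL at T2 both were nearly absent, at no more than 0.347 FPKM in any of the 9 libraries. With SL at T1, LOC103410495 averaged 2.06 ± 0.238 FPKM in DCA_CF, 3.77 ± 0.208 in ULO and 1.74 ± 0.258 in RA (SD, n = 3 libraries each). AP2D16 averaged 0.837 ± 0.163, 0.946 ± 0.269 and 0.451 ± 0.171 FPKM in the same groups.

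IAA8 belongs to the Aux/IAA family, repressors of auxin response that are broken down when auxin is present. It had 19.4, 21.9 and 20.1 FPKM in T1_DCA_CF and 20.6, 20.1 and 19.4 FPKM in T1_ULO, against 2.61, 2.28 and 2.95 FPKM in T1_RA. The T1 low oxygen groups overlapped each other, and their gap to RA is what the rule chose. CYCD3 is a D-type cyclin symbol, and in Arabidopsis such cyclins drive entry into the cell cycle and answer to cytokinin. It had 21.6, 19.7 and 21.9 FPKM in T1_DCA_CF and 15.8, 17.7 and 18.8 FPKM in T1_ULO, against 2.13, 2.31 and 2.43 FPKM in T1_RA.

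SS was among the most abundant members and kept a moderate level in all groups. It had 1433, 1437 and 1419 FPKM in T1_DCA_CF and 621, 622 and 610.3 FPKM in T1_ULO, against 138, 141 and 122 FPKM in T1_RA. Its level in T1_DCA_CF was thus above that in T1_ULO in every library, and its lowest group means were 60.5 FPKM in T2_DCA_CF_SL and 60.6 FPKM in T1_ULO_SL. The files do not expand the symbol. In the RefSeq gene table SS and another member, LOC103449170, lie on the same chromosome with 5 genes between them, and no other pair of members in that table lay as close. LOC103449170 averaged 9.67 FPKM in T1_DCA_CF and 11.3 FPKM in T1_ULO, against 0.0330 FPKM in T1_RA.

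The organelle gene rps14, which codes for a protein of the small ribosomal subunit, was the member of lowest score. Mitochondria and plastids both have a gene of this symbol, and the table holds 49 symbols of the mitochondrial genome alone and none of the plastid genome alone. The gene had 26.2, 38.6 and 28.3 FPKM in T1_DCA_CF and 28.8, 29.6 and 30.3 FPKM in T1_ULO, against 8.77, 6.55 and 10.2 FPKM in T1_RA. Beside this, the summed mitochondrial rRNAs ran the other way, lower in both T1 low oxygen groups than in T1_RA, and the part of rRNA or RNA quality in the level of rps14 was not tested.

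Among members without a name, LOC103400792 had the highest score, 6.39. It had 3048, 3066 and 3041 FPKM in T1_DCA_CF and 2529, 2524 and 2470.5 FPKM in T1_ULO, against 0.871, 2.43 and 1.15 FPKM in T1_RA. It alone made up 15.4% to 15.8% of the members' summed FPKM in the T1 low oxygen libraries. In the other groups it was highest in T2_ULO, at 27.1, 30.9 and 29.1 FPKM, and averaged 15.5 ± 0.224 FPKM in T1_RA_SL (SD, n = 3 libraries).

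The other genes of highest score were the pseudogene LOC103444929, LOC103449336, LOC103417183, LOC108172771, LOC103433581, LOC103408191, LOC103437495, LOC103412833 and LOC103414411. LOC103444929 had 124, 122 and 125 FPKM in T1_DCA_CF and 124, 125 and 119.6 FPKM in T1_ULO, and was listed at 0 in all libraries of RA and of T2 with SL. LOC103437495 averaged 119 FPKM in T1_DCA_CF and 95.6 FPKM in T1_ULO, and was listed at 0 in all 3 libraries of T2_RA. Both were near or at 0 in RA at T1, whereas LOC103433581 averaged 9.79 FPKM and LOC103414411 averaged 38.7 FPKM in T1_RA.

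The most abundant members were LOC103421656, LOC103400792, LOC103400341, SS and LOC103450725. LOC103421656 had 3101, 3254 and 3099 FPKM in T1_DCA_CF and 3444, 3172 and 3212 FPKM in T1_ULO, against 198, 217 and 225 FPKM in T1_RA. It stayed high at T2 without SL, at 840.2 ± 10.1 FPKM in T2_DCA_CF and 627 ± 35.4 FPKM in T2_ULO, and was at 3.79 ± 0.46 FPKM in T2_DCA_CF_SL (SD, n = 3 libraries each). LOC103400341 had 1009, 1156 and 1109.5 FPKM in T1_DCA_CF and 1094, 1179 and 1133 FPKM in T1_ULO, against 311, 319.9 and 305 FPKM in T1_RA. LOC103450725 kept a level in all groups, averaging 474 FPKM in T1_DCA_CF, 541 FPKM in T1_ULO and 46.9 to 137 FPKM in every other group.

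**Figure D2:**
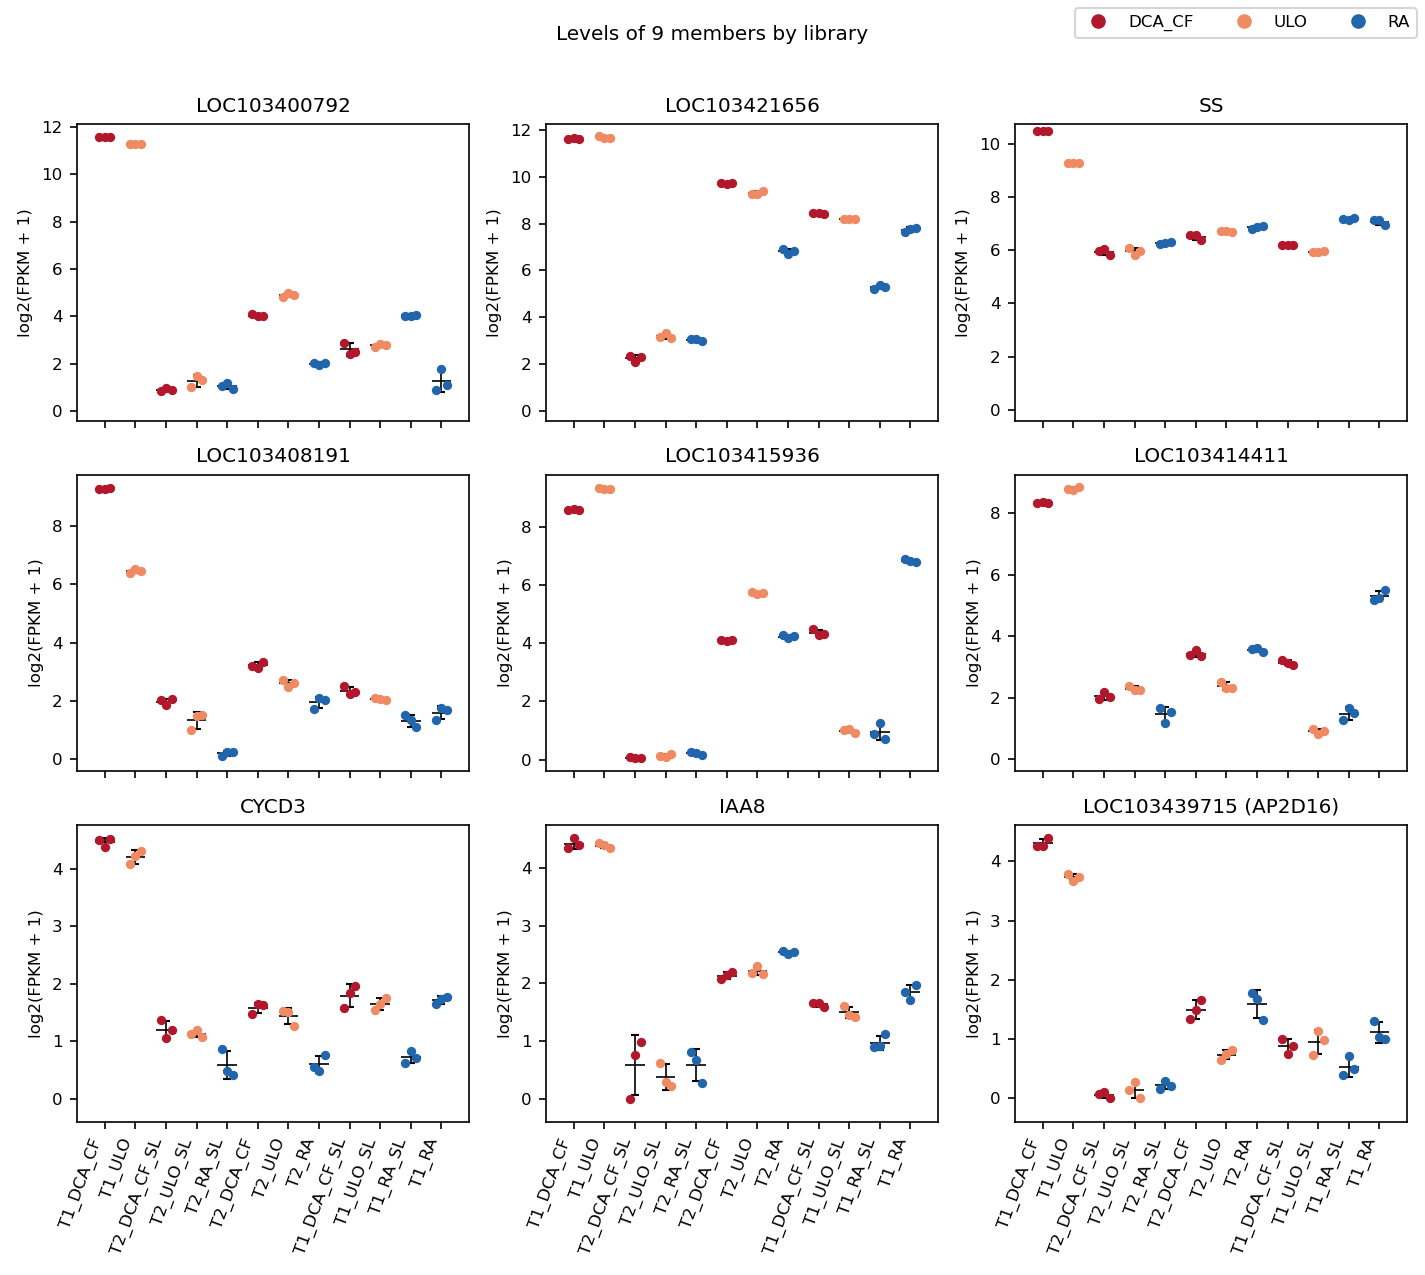
Level of 9 early low oxygen genes as log2(FPKM + 1) in each library, with 3 points per group, the group mean as a horizontal line and the SD as a bar, and regimes by colour. All 9 are highest in T1_DCA_CF and T1_ULO. LOC103421656 and LOC103415936 keep intermediate levels in several other groups, T1_DCA_CF_SL among them. Outside the T1 low oxygen groups, LOC103400792 is highest in T2_ULO at a mean of 29.0 FPKM, and LOC103408191 in T2_DCA_CF at 8.32 FPKM.

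Replicates of the T1 low oxygen groups varied little for most members, with a median coefficient of variation of 2.78% in T1_DCA_CF and 4.13% in T1_ULO. A listed 0 stood beside a replicate of 3 FPKM or more in the same group for 6 members, and in the T1 low oxygen groups for 1 of them. That one, LOC103412187, had 18.8, 17.4 and 0 FPKM in T1_DCA_CF and 13.5, 13.8 and 0 FPKM in T1_ULO, and was at 0 in all other libraries. The others were LOC103411406, LOC103449190, LOC103430924, LOC103407075 and LOC103433716, and a listed 0 in such a group can be a failed estimate. LOC103417079 also spread widely, with 226, 82.9 and 95.6 FPKM in T1_DCA_CF and 52.8, 272 and 259.6 FPKM in T1_ULO.

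Some members moved as copies of each other, which bears on how independent the 100 are. Profiles were paired where the log2 ratio of 2 members had an SD below 0.2 over at least 15 libraries with both at 1 FPKM or more, or where their log2(FPKM + 1) differed with an SD below 0.15 over all libraries. This gave 8 sets that hold 17 members, and so 91 distinct profiles. LOC103434257 stood at 0.790 times LOC103415936 on average, between 0.760 and 0.820 times in each of 21 libraries. LOC103414411 and LOC103423853 had a mean ratio of 0.994, and LOC103451648, the third of that set, stood at 0.472 times LOC103423853. LOC103421656 stood at 6.72 times LOC103411228. The other sets were LOC103412833 with LOC103429893, LOC103440263 with LOC103420867, LOC103404754 with LOC103425925, LOC103421572 with LOC103429094, and LOC103432701 with LOC103408150. In the sets of LOC103404754 and of LOC103421572, both genes reached 1 FPKM in only 6 libraries. These sets met only the second criterion, in which libraries with both genes below 1 FPKM also count. Whether members of a set share reads was not tested, and their split between the genes of a set is uncertain.

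The lowest scores among the members were 1.70 each, for LOC103445985, LOC103408150 and rps14. The genes next below were MYBR7 at 1.697, LOC103413095 at 1.69 and LOC103406427 at 1.69. MYBR7, of the MYB-related DNA-binding factors, averaged 170.2 FPKM in T1_DCA_CF and 141 FPKM in T1_ULO, against 37.3 FPKM in T1_RA. The same score taken for the other low oxygen pairs reached the lowest member's value in 27 genes at T2 without SL, 7 genes at T2 with SL and 3 genes at T1 with SL.

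Outside the 100, the genes whose mean log2 level over the 12 groups was most like the mean of the members were LOC103433814 (Pearson r 0.995), LOC103446359 (0.986), LOC103416802 (0.984), LOC103400075 (0.984) and LOC103430317 (0.979). The members' own r with that mean ran from 0.751 to 0.990, with a median of 0.951. These coefficients describe 12 group means of the same libraries, most of whose range lies between the T1 low oxygen groups and the rest. Their scores were below that of the lowest member. LOC103433814 averaged 26.8 FPKM in T1_DCA_CF and 25.5 FPKM in T1_ULO, against 13.5 FPKM in T1_RA, and had a score of 0.87. LOC103430317 averaged 17.0 FPKM in T1_DCA_CF and 12.01 FPKM in T1_ULO, against 3.14 FPKM in T1_RA, and with a score of 1.60 lay just under the members.

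Differences that the rule did not fix were tested with limma across the 32923 genes that reached 1 FPKM in 3 or more libraries, and all 100 members passed this filter through the T1 low oxygen groups where they are high. A gene was called at an adjusted p (Benjamini-Hochberg over all genes tested) under 0.05, and each fitted value below is a difference in log2(FPKM + 1) ± its standard error. The p-values measure only the spread between these libraries. That spread is 1 estimate per gene over all 12 groups, so groups that are not compared also enter it. Background percentages give the share of all genes tested that was called in the same direction. The rule set an upper bound for the other 10 groups, relative to each member's own level in the T1 low oxygen groups. Many members are low in those other groups, which limits how far they can differ, but abundant ones such as LOC103421656 are not low in all of them.

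The first such comparison was between the low oxygen regimes themselves at T1 without SL. In DCA_CF, 44 members were higher than in ULO and 11 were lower, against 16.6% and 24.4% of all genes. At differences of at least 2-fold, 24 members were higher and none lower, against 1.46% and 1.50% of all genes. The median member lay 0.26 higher in DCA_CF, while the median over all genes was -0.05. By mean FPKM, 69 members were above in DCA_CF and 31 in ULO, with ratios of DCA_CF to ULO from 0.596 to 7.09 and a median of 1.21. The rule takes the lower of the 2 groups, so it does not fix which of them is higher. Values of both groups entered the score, though, and either alone could meet the minimum of 10 FPKM. LOC103404754 and LOC103425925, for example, met it through DCA_CF alone, and LOC103449170 through ULO alone. The lowest member mean was 8.27 FPKM in T1_DCA_CF and 3.75 FPKM in T1_ULO. Genes tested needed only 1 FPKM in 3 libraries, and log2(FPKM + 1) understates changes of low genes. The contrasts with all genes are therefore not free of the choice.

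LOC103408191 differed most between these regimes. It had 612, 605 and 619 FPKM in DCA_CF and 82.4, 89.4 and 86.9 FPKM in ULO at T1 without SL, a log2 difference of 2.81 ± 0.123 (limma, adjusted p = 1.63e-16). LOC103404754 averaged 29.0 ± 1.08 FPKM in DCA_CF and 4.66 ± 0.266 FPKM in ULO (SD, n = 3 libraries each; difference 2.40 ± 0.0822, adjusted p = 7.89e-19 in limma), and its copy-like partner LOC103425925 differed by 2.38 ± 0.0791. SS was higher in DCA_CF by 1.21 ± 0.0568 (adjusted p = 8.12e-16), AP2D16 by 0.57 ± 0.115 (adjusted p = 0.000217) and LOC103410495 by 0.45 ± 0.107 (adjusted p = 0.00101). LOC103400792 did not pass, at 0.28 ± 0.140 (adjusted p = 0.111), nor did CYCD3 at 0.26 ± 0.111 (adjusted p = 0.0645), IAA8 at 0.03 ± 0.156 or rps14 at 0.05 ± 0.233. For LOC103400792 and CYCD3 the libraries of the 2 regimes given above nevertheless did not overlap, with DCA_CF higher. Their standard errors include the spread in groups not compared here, so not passing does not show that the regimes were alike.

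Of the members lower in DCA_CF at T1 without SL, LOC103440688 changed most, with 46.6, 47.1 and 47.0 FPKM in DCA_CF and 77.0, 81.0 and 78.1 FPKM in ULO (-0.73 ± 0.0954, adjusted p = 4.15e-07). LOC103415936 had 377, 391 and 377 FPKM in DCA_CF and 637, 623 and 630.3 FPKM in ULO (-0.72 ± 0.0751, adjusted p = 8.73e-09), and its partner LOC103434257 differed by -0.71 ± 0.0564. The groups did not overlap for any of these 3 genes. The count of members lower in DCA_CF depended on the setting: it was 6 with a pseudocount of 0.1, 17 in a fit of the compared groups alone and 7 with 1 member of each copy-like set.

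**Figure D3:**
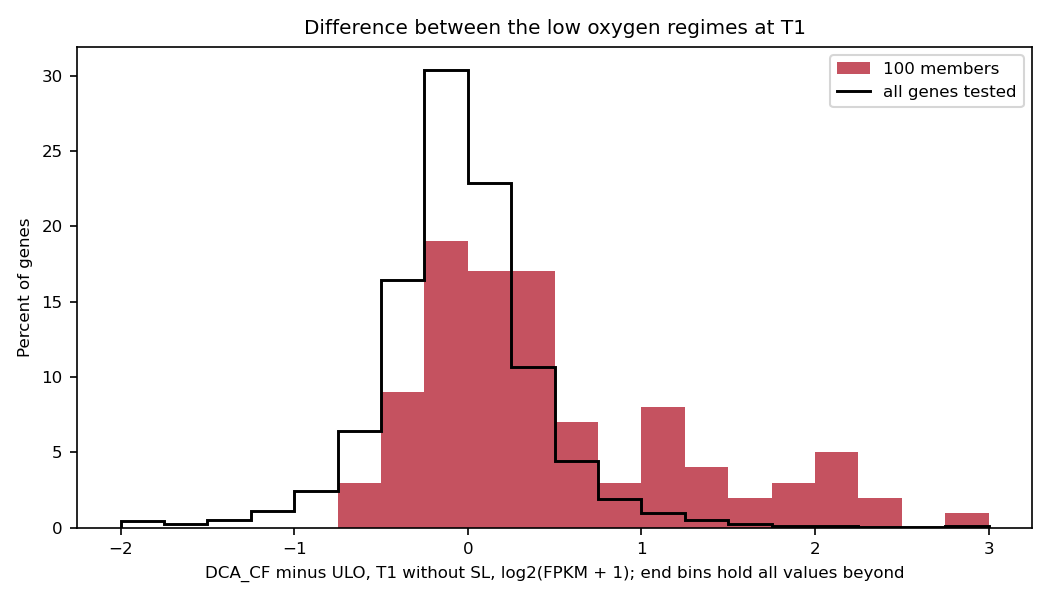
Percent of the 100 members (filled) and of all genes tested (line) by the log2(FPKM + 1) difference of DCA_CF minus ULO at T1 without SL, in bins of 0.25, with the end bins holding all values beyond. The members' distribution reaches to 2.81 on the DCA_CF side and stops at -0.73 on the ULO side.

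With SL at T1, the early low oxygen genes were far lower in both low oxygen regimes, and 32 of them were below 1 FPKM in both. Even so, 36 members were higher in DCA_CF than in ULO and 4 were lower, against 23.9% and 7.40% of all genes, and 7 were lower when libraries were scaled by the median of ratios (RLE). LOC103415936 had 21.2, 18.3 and 18.9 FPKM in T1_DCA_CF_SL and 1.00, 1.08 and 0.884 FPKM in T1_ULO_SL, a difference of 3.36 ± 0.0751 (limma, adjusted p = 8.96e-24). This is the other direction from that without SL, and the change in the difference was itself called at -4.09 ± 0.106 (adjusted p = 5.28e-22). LOC103434257 (3.20 ± 0.0564) and LOC103423853 (2.27 ± 0.118) were also higher in DCA_CF with SL. On the lower side stood LOC103449190 (-1.98 ± 0.595, adjusted p = 0.0113), the AP2/ERF gene LOC103410495 (-0.64 ± 0.107, adjusted p = 1.96e-05) and LOC103404442 (-0.27 ± 0.0598, adjusted p = 0.000796). Over all members, the difference of DCA_CF minus ULO was higher without SL than with SL for 35 and lower for 26, against 11.1% and 30.4% of all genes. The groups in this contrast all entered the score, so these counts and the change given for LOC103415936 are not free of the choice.

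Against RA at T1 with SL, the low oxygen regimes still differed for some members. In ULO, 31 members were higher and 23 lower, against 24.0% and 26.0% of all genes, with 36 members below 1 FPKM in both groups. In DCA_CF, 43 were higher and 10 lower, against 29.5% and 16.7% of all genes, with 31 below 1 FPKM in both. Under RLE scaling, 16 members were lower in DCA_CF in place of 10. The share of members lower in ULO was near that of all genes. Both comparisons share the RA libraries.

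In ULO the member that rose most was LOC103421656. It had 348, 345 and 343 FPKM in T1_DCA_CF_SL and 290.4, 289 and 290.2 FPKM in T1_ULO_SL, against 36.0, 40.4 and 38.4 FPKM in T1_RA_SL. The differences from RA were 3.14 ± 0.0652 in DCA_CF and 2.89 ± 0.0652 in ULO (limma, adjusted p = 3.02e-24 and 4.84e-24), and LOC103411228, its partner, differed by 2.73 ± 0.0991 in ULO. In DCA_CF the member that rose most was LOC103415936, at 3.41 ± 0.0751, with LOC103434257 at 3.22 ± 0.0564. LOC103449190 rose by 1.88 ± 0.595 in ULO (adjusted p = 0.00960), on RA libraries of 0, 2.87 and 0.857 FPKM. CYCD3 was higher with SL at T1 in DCA_CF by 1.07 ± 0.111 (adjusted p = 4.81e-09) and in ULO by 0.92 ± 0.111 (adjusted p = 5.35e-08), and IAA8 by 0.66 ± 0.156 (adjusted p = 0.000843) and 0.52 ± 0.156 (adjusted p = 0.00628).

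Other members were higher in RA with SL at T1. LOC103417845 had 5.33, 5.72 and 5.83 FPKM in T1_DCA_CF_SL and 0.432, 0.671 and 0.748 FPKM in T1_ULO_SL, against 24.5, 23.6 and 26.0 FPKM in T1_RA_SL. It fell by 1.95 on the log2 scale in DCA_CF (-1.95 ± 0.141, adjusted p = 3.24e-12) and by 3.99 in ULO (-3.99 ± 0.141, adjusted p = 1.88e-19). LOC103431283 fell in ULO (-2.12 ± 0.101), and LOC103400792, the member of highest score, fell in DCA_CF (-1.44 ± 0.140, adjusted p = 1.24e-09) and in ULO (-1.26 ± 0.140, adjusted p = 1.07e-08). LOC103439447 was listed at 0 in all 3 libraries of T1_ULO_SL and at 0, 0.0360 and 0.0564 FPKM in T1_DCA_CF_SL, against 1.84, 1.68 and 1.97 FPKM in T1_RA_SL. SS was also lower, by -0.98 ± 0.0568 in DCA_CF (adjusted p = 2.67e-14) and -1.23 ± 0.0568 in ULO (adjusted p = 8.55e-17). Thus SS and LOC103400792, both highest in low oxygen at T1 without SL, lay below RA in low oxygen at T1 with SL.

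At T2 without SL, more members were higher than lower in low oxygen, and so were more of all genes. In ULO, 54 members were higher than in RA and 25 lower, against 43.1% and 25.4% of all genes. In DCA_CF, 58 were higher and 19 lower, against 45.1% and 24.3%. The medians over members were 0.36 in ULO and 0.57 in DCA_CF, beside 0.20 and 0.24 over all genes. T2_DCA_CF was the next highest group for 36 members, T2_RA for 10 and T2_ULO for 9. Their levels there set the score, so these counts and medians are not free of the choice. RLE scaling moved the median of all genes by -0.165 in ULO and by -0.201 in DCA_CF, and the counts of members called stayed within 1.5 times under that scaling.

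The members that rose most at T2 without SL were close to 0 in RA. LOC103420770 had 10.3, 10.1 and 10.7 FPKM in T2_DCA_CF and 20.8, 23.8 and 21.4 FPKM in T2_ULO, against 0.164, 0.379 and 0.117 FPKM in T2_RA (3.23 ± 0.113 in DCA_CF and 4.24 ± 0.113 in ULO, limma, adjusted p = 7.25e-20 and 1.28e-22). LOC103449190 had 18.03, 19.5 and 18.5 FPKM in T2_DCA_CF and 13.1, 11.4 and 11.6 FPKM in T2_ULO, against 0.290, 0 and 0 FPKM in T2_RA. LOC103437495 had 9.08, 9.34 and 9.98 FPKM in T2_DCA_CF and 9.33, 7.87 and 8.47 FPKM in T2_ULO, and was listed at 0 in RA. LOC103400792 was higher in DCA_CF by 2.03 ± 0.140 (adjusted p = 3.16e-13) and in ULO by 2.90 ± 0.140 (adjusted p = 1.14e-16), and CYCD3 by 0.98 ± 0.111 (adjusted p = 9.23e-09) and 0.83 ± 0.111 (adjusted p = 1.75e-07).

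The members that fell in low oxygen at T2 without SL included LOC103417845, with 2.22, 2.14 and 1.56 FPKM in T2_DCA_CF against 18.4, 23.0 and 23.7 FPKM in T2_RA (-2.93 ± 0.141, limma, adjusted p = 1.13e-16). LOC103453977 averaged 17.4 ± 0.110 FPKM in DCA_CF and 69.8 ± 8.22 FPKM in RA (-1.93 ± 0.111, adjusted p = 6.43e-15; SD, n = 3 libraries each). In ULO the falls were largest for LOC103430924 (-2.52 ± 0.493, adjusted p = 5.49e-05), whose ULO libraries include a listed 0, LOC103439447 (-1.75 ± 0.0448) and LOC103444865 (-1.74 ± 0.120), and LOC103430924 also fell in DCA_CF (-2.24 ± 0.493, adjusted p = 0.000223). Of the AP2/ERF members, LOC103410495 fell by 0.65 on the log2 scale in DCA_CF (-0.65 ± 0.107, adjusted p = 5.27e-06) and by 1.11 in ULO (-1.11 ± 0.107, adjusted p = 3.63e-10). AP2D16 fell in ULO (-0.86 ± 0.115, adjusted p = 2.04e-07), with -0.09 ± 0.115 in DCA_CF (adjusted p = 0.492), and SS fell in DCA_CF by 0.37 (-0.37 ± 0.0568, adjusted p = 1.95e-06) and in ULO by 0.15 (-0.15 ± 0.0568, adjusted p = 0.0203).

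With SL at T2, most early low oxygen genes were low in all regimes, and 45 members in the ULO comparison and 44 in the DCA_CF comparison were below 1 FPKM in both groups. In ULO, 17 members were higher than in RA and 23 lower, against 17.6% and 27.2% of all genes. In DCA_CF, 22 were higher and 27 lower, against 19.3% and 27.6%. All 4 shares were near those of all genes. The difference of ULO minus RA at T2 was lower with SL than without for 42 members and higher for 15, against 37.5% and 18.5% of all genes, and that of DCA_CF minus RA was lower for 51 and higher for 11, against 39.0% and 17.6%. For ULO both shares were near those of all genes. Groups at T2 without SL set the bound of the score for some members, so these counts are not free of the choice.

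LOC103404442 was among those higher with SL at T2, with 11.3, 11.5 and 12.7 FPKM in T2_DCA_CF_SL and 12.7, 12.7 and 12.2 FPKM in T2_ULO_SL, against 4.26, 3.75 and 4.06 FPKM in T2_RA_SL (1.43 ± 0.0598 in ULO, limma, adjusted p = 9.54e-18). LOC103408820 was higher in DCA_CF (1.69 ± 0.391, adjusted p = 0.000673) and in ULO (1.42 ± 0.391, adjusted p = 0.00374), and so was LOC103408191 (1.77 ± 0.123 and 1.13 ± 0.123), on RA levels of 0.158 ± 0.0667 FPKM (SD, n = 3 libraries). LOC103449190 was called higher in DCA_CF (2.09 ± 0.595, adjusted p = 0.00458), on libraries of 7.96, 8.41 and 0 FPKM. On the other side, LOC103400341 had 3.48, 3.93 and 4.45 FPKM in T2_DCA_CF_SL, against 20.3, 18.9 and 20.3 FPKM in T2_RA_SL (-2.07 ± 0.0751, adjusted p = 3.26e-19). LOC103417845 (-2.86 ± 0.141 in DCA_CF and -2.78 ± 0.141 in ULO), LOC103435892 (-2.32 ± 0.10 and -2.26 ± 0.10) and, in ULO, LOC103431283 (-2.27 ± 0.101) fell as well. LOC103417845 was lower than in RA in all 6 comparisons of low oxygen with RA tested here, with -1.25 ± 0.141 in ULO at T2 without SL (adjusted p = 9.10e-09).

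The tag SL was also compared within RA, where the rule used neither group as a high one. The rule did use these groups through its upper bound. The next highest group was T1_RA for 27 members and T1_RA_SL for 4, and T2_RA for 10 and T2_RA_SL for 1. Members bounded by RA without SL lie close to that bound there, so the counts lower with SL are not free of the choice. At T1, 5 members were higher with SL and 57 lower, against 26.4% and 35.3% of all genes. At differences of at least 2-fold, 3 were higher and 30 lower, against 7.34% and 9.81%. The median member was -0.50 with SL, beside -0.07 over all genes, and 23 members were below 1 FPKM in both groups.

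The members that fell most with SL in RA at T1 included LOC103415936 and its partner. LOC103415936 had 0.847, 1.36 and 0.650 FPKM in T1_RA_SL, against 116, 111 and 109 FPKM in T1_RA (-5.87 ± 0.0751, limma, adjusted p = 2.30e-29), and LOC103434257 changed by -5.65 ± 0.0564. LOC103423853 averaged 1.23 ± 0.583 FPKM with SL and 42.2 ± 3.21 FPKM without (-4.31 ± 0.118; SD, n = 3 libraries each), and LOC103400341 changed by -3.11 ± 0.0751 (adjusted p = 3.41e-23). Among named members, CYCD3 fell by 0.99 on the log2 scale (-0.99 ± 0.111, adjusted p = 9.79e-09), IAA8 by 0.87 (-0.87 ± 0.156, adjusted p = 1.95e-05), AP2D16 by 0.58 (-0.58 ± 0.115, adjusted p = 7.89e-05) and LOC103410495 by 0.36 (-0.36 ± 0.107, adjusted p = 0.00502). SS was at 0.11 ± 0.0568 (adjusted p = 0.108).

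Among the 5 members that rose with SL in RA at T1 was the one of highest score. LOC103400792 had 15.3, 15.4 and 15.8 FPKM in T1_RA_SL, against 0.871, 2.43 and 1.15 FPKM in T1_RA (2.78 ± 0.140, limma, adjusted p = 4.77e-16). LOC103444238 had 14.0, 12.5 and 14.9 FPKM in T1_RA_SL, against 3.22, 3.28 and 3.49 FPKM in T1_RA (1.77 ± 0.0673, adjusted p = 9.63e-19). LOC103439447 rose to 1.83 ± 0.144 FPKM, against 0.0468 ± 0.0133 FPKM without SL (1.43 ± 0.0448; SD, n = 3 libraries each). The groups did not overlap for these 3 genes.

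At T2 in RA, 15 members were higher with SL and 44 lower, against 27.3% and 31.6% of all genes, and at least 2-fold 4 were higher and 25 lower, against 7.17% and 9.23%. LOC103421656 had 7.47, 7.49 and 6.98 FPKM in T2_RA_SL, against 121, 102 and 111 FPKM in T2_RA (-3.76 ± 0.0652, limma, adjusted p = 1.83e-26). LOC103415936 (-4.01 ± 0.0751) and LOC103434257 (-3.71 ± 0.0564) fell again, as did AP2D16 (-1.37 ± 0.115, adjusted p = 3.63e-11), LOC103410495 (-1.49 ± 0.107, adjusted p = 1.26e-12), IAA8 (-1.95 ± 0.156, adjusted p = 1.25e-11) and SS (-0.58 ± 0.0568, adjusted p = 7.23e-10). LOC103444238 rose again (1.38 ± 0.0673, adjusted p = 2.52e-16) and LOC103446447 rose (1.15 ± 0.0817, adjusted p = 9.95e-13). LOC103407075 was called higher (1.50 ± 0.563, adjusted p = 0.0241) through a listed 0 in 1 library of T2_RA beside 17.3 FPKM in each of the other 2, and without that library its difference was 0.10.

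The SL difference in RA was itself compared between the times. It was higher at T2 than at T1 for 38 members and lower for 20, against 23.5% and 20.6% of all genes. The share lower was near that of all genes. T1_RA set the bound of the score for 27 members and T2_RA for 10, so these counts are not free of the choice. LOC103400792, which rose with SL at T1, fell with it at T2 (-0.95 ± 0.140, limma, adjusted p = 1.18e-06), and the difference of the 2 was -3.73 ± 0.197 (adjusted p = 6.37e-15). IAA8 (-1.08 ± 0.221, adjusted p = 0.000210), AP2D16 (-0.79 ± 0.163, adjusted p = 0.000233) and LOC103410495 (-1.13 ± 0.151, adjusted p = 5.21e-07) had a more negative SL difference at T2, and CYCD3 a less negative one (0.98 ± 0.157, adjusted p = 9.34e-06).

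Between the times in RA without SL, 15 members were higher at T2 than at T1 and 52 were lower, against 25.2% and 23.4% of all genes. At least 2-fold, 3 were higher and 18 lower, against 3.80% and 3.39% of all genes, and the median member was -0.35, beside 0.00168 over all genes. For 27 members T1_RA was the group that the score was measured from, so their level there was close to the bound that the rule set. LOC103415936 had 18.2, 16.9 and 17.9 FPKM in T2_RA, against 116, 111 and 109 FPKM in T1_RA (-2.60 ± 0.0751, limma, adjusted p = 6.37e-21). LOC103434257 (-2.57 ± 0.0564) and LOC103404442 (-2.49 ± 0.0598, adjusted p = 1.15e-22) fell as well, and CYCD3 fell to 0.520 ± 0.157 FPKM at T2, against 2.29 ± 0.149 FPKM at T1 (-1.12 ± 0.111, adjusted p = 2.02e-09; SD, n = 3 libraries each).

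A few members ran the other way with time in RA. LOC103439447 had 3.32, 3.05 and 3.25 FPKM in T2_RA, against 0.0550, 0.0540 and 0.0315 FPKM in T1_RA (2.01 ± 0.0448, limma, adjusted p = 2.44e-23). IAA8 was higher at T2 by 0.69 ± 0.156 (adjusted p = 0.000528), AP2D16 by 0.48 ± 0.115 (adjusted p = 0.00107) and LOC103400792 by 0.75 ± 0.140 (adjusted p = 5.84e-05). LOC103450348 (1.07 ± 0.295, adjusted p = 0.00342) and LOC103413822 (1.03 ± 0.314, adjusted p = 0.00775) were called on T2 libraries of 2.85, 2.75 and 0 FPKM and 2.79, 2.70 and 0 FPKM, so their rise rests on 2 of the 3 libraries. In a fit of the compared groups alone, 9 members were higher at T2 in place of 15.

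**Figure D4:**
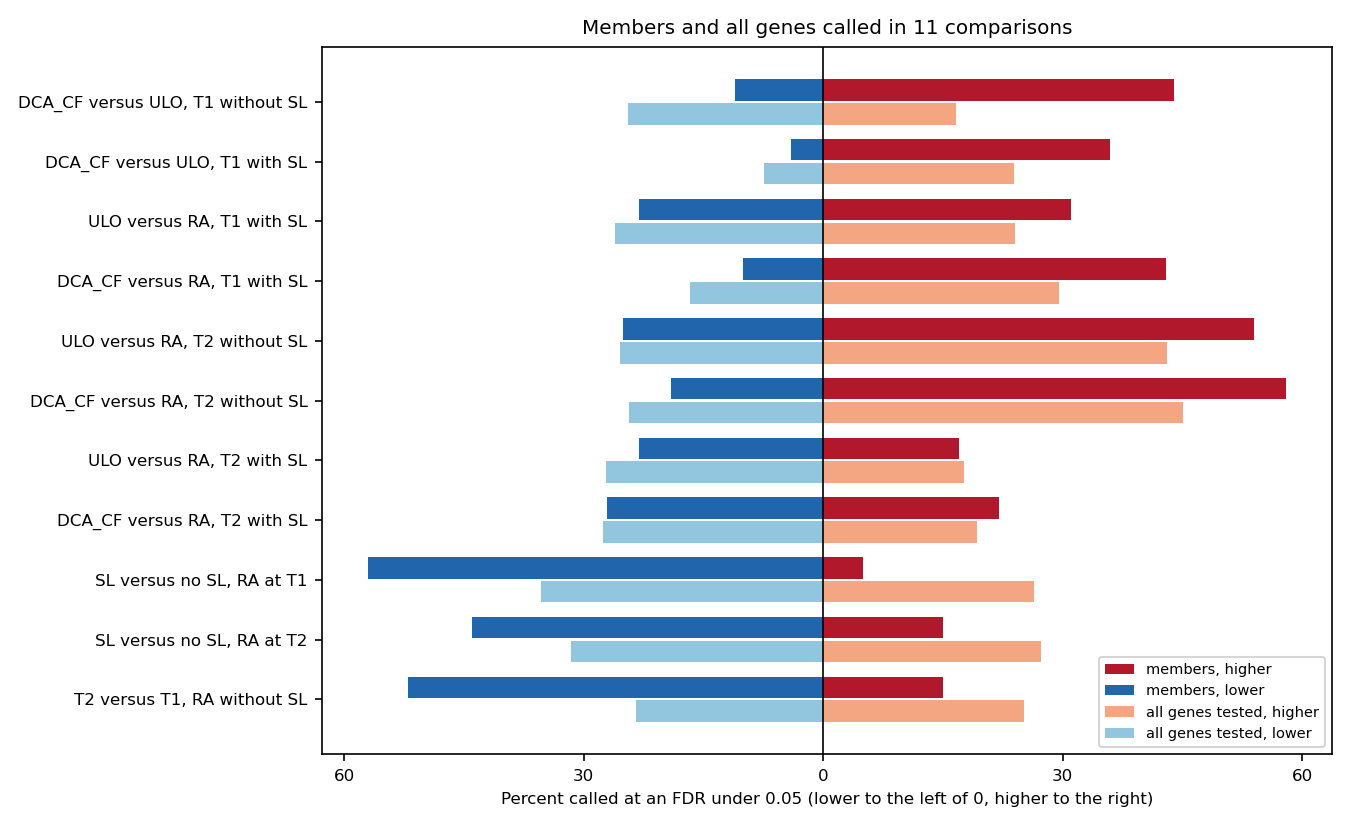
Percent of the 100 members (upper, dark bar of each pair) and of all 32923 genes tested (lower, pale bar) called at an FDR under 0.05 in 11 comparisons, with those higher in the group named first to the right of 0 and those lower to the left. Members stand furthest from all genes in DCA_CF versus ULO at T1 without SL (44% higher against 16.6%), in SL versus no SL in RA at T1 (5% higher against 26.4%) and in T2 versus T1 in RA (52% lower against 23.4%). None of these gaps is free of the choice of members. Both groups of the first entered the score, and T1_RA, in the others, set its bound for 27 members.

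The members can be set beside other named genes of their families, which were grouped by symbol or synonym and, unlike the members, are not bound to lie high in low oxygen. At T1 without SL, 25.8% of all genes tested were higher than RA in both DCA_CF and ULO and 27.3% lower in both. Of the 36 AP2/ERF genes tested that are not members, 18 were higher in both and 10 lower. Of the 9 other Aux/IAA genes, 5 were higher in both and 1 lower. IAA5 averaged 19.1 FPKM in T1_DCA_CF and 20.0 FPKM in T1_ULO, against 0.809 FPKM in T1_RA (3.48 ± 0.146 and 3.54 ± 0.146, limma, adjusted p = 5.53e-18 and 4.58e-18), about the levels of IAA8. It is not a member.

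No member has a MYB or WRKY symbol or synonym, though most members have no name. Of 45 MYB and MYB-related genes tested, 21 were higher than RA in both regimes at T1 without SL and 10 lower, and the 17 of them named MYBR divided into 10 higher and 2 lower. Of 13 WRKY genes, 5 were higher in both and 7 lower. Of 31 protein-coding mitochondrial genes other than rps14, 18 were higher in both regimes and 1 lower. Of 7 low oxygen and GABA genes, 4 were higher in both and 1 lower. Among these, GLB1, a plant haemoglobin that scavenges nitric oxide at low oxygen, averaged 996 FPKM in T1_DCA_CF and 1275 FPKM in T1_ULO, against 290.1 FPKM in T1_RA. GAD1, a glutamate decarboxylase that makes GABA, averaged 387 FPKM in T1_DCA_CF and 524 FPKM in T1_ULO, against 225 FPKM in T1_RA (0.78 ± 0.0269 and 1.21 ± 0.0269, limma, adjusted p = 6.20e-20 and 2.50e-24). The alcohol dehydrogenase gene LOC103428551 averaged 129 FPKM in T1_DCA_CF and 60.7 FPKM in T1_ULO, against 62.3 FPKM in T1_RA, and rose in DCA_CF (1.04 ± 0.0736, adjusted p = 7.23e-13) but did not pass in ULO (-0.04 ± 0.0736, adjusted p = 0.696). GAD3, the gene lower in both, was listed at 0 in the T1 low oxygen libraries, against a mean of 3.50 FPKM in T1_RA.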

How the data were processed

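The authors deposited 1 table of FPKM values, with 57423 genes and 36 library columns. Its sheet is named for counts, but the values are not whole, so count models were not used, and a TPM table with genes left out would look alike. Tools named in the submitters' processing notes are HISAT2, StringTie and DESeq2 (versions not given in the sources used here). The genome build is not given in the sources used here. Per the labels' protocols, libraries were non-directional, so reads of a gene and of an antisense gene cannot be told apart. Columns headed DCA without CF were matched to samples by time, SL tag and letter.

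The rule and lists were chosen with earlier results of these data known. Members were scored on log2(FPKM + 1). Genes that reached 1 FPKM in 3 or more libraries were fitted with limma 3.58.1 (trended eBayes, 1 mean per group, all 36 libraries) in R 4.3.3, adjusted by Benjamini-Hochberg over 32923 genes, with an FDR threshold of 0.05. The log2(FPKM + 1) scale understates changes of low genes. Differences between comparisons and families by symbol were added after the table was seen, since neither table holds the gene descriptions that other planned lists needed. The procedure was run on simulated data with the same spread in all groups for each gene, as the fit assumes. That run cannot show how the fit behaves where spread differs between groups. Tables were handled in Python 3.11.15 with pandas 2.3.3.

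Members named are those with a symbol, the 10 of highest score, the 5 most abundant, the 3 lowest in score with the 3 genes below them, and up to 3 called members of largest change per direction in each comparison. Others named were chosen after their values were seen. A RefSeq gene table (assembly GDT2T_hap1) gave synonyms, biotypes and gene order. No coordinates are given. Letters were not used to pair libraries. Residuals of the same letter correlated at a mean of 0.00292, those of other letters at -0.00146. Among libraries of other groups, the closest one had the same letter for 17 of 36 libraries. Libraries of a group shared at most 0.00279% of values, so none was counted as a duplicate.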

Additional observations from a re-analysis of the deposited data

Results flagged for a closer look

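Some differences were not the same in 2 conditions, tested as a difference of contrasts in limma. The difference of DCA_CF minus ULO at T1 was called higher without SL than with SL in 35 members and lower in 26 (11.1% and 30.4% of all genes), from -4.09 ± 0.106 for LOC103415936 to 3.58 ± 0.842 for LOC103449190. The groups in this contrast all entered the score, so its counts and ends are not free of the choice.

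The difference of ULO minus RA at T2 was called higher with SL than without in 15 members and lower in 42 (18.5% and 37.5% of all genes), with -4.25 ± 0.160 for LOC103420770 and 2.03 ± 0.146 for LOC103414411 at the ends. Both shares were near those of all genes, and 45 members were below 1 FPKM in both T2_ULO_SL and T2_RA_SL. For DCA_CF minus RA at T2 11 were called higher and 51 lower (17.6% and 39.0% of all genes), with -3.87 ± 0.142 for LOC103435892 and 1.45 ± 0.0634 for LOC103439447. Groups at T2 without SL set the bound of the score for some members, so the counts in both regimes are not free of the choice.

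The SL difference in RA was called higher at T2 than at T1 in 38 members and lower in 20 (23.5% and 20.6% of all genes), with -3.73 ± 0.197 for LOC103400792 and 2.98 ± 0.109 for LOC103435356. The share lower was near that of all genes. T1_RA set the bound of the score for 27 members and T2_RA for 10, so these counts are not free of the choice.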

How the results depend on the processing

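Of 176 recomputed counts of members called (22 counts under 8 alternatives), 170 stayed within 1.5 times. The exceptions were members lower in DCA_CF than ULO at T1 with SL (7 under RLE scaling against 4), lower in DCA_CF than RA at T1 with SL (16 under RLE scaling against 10), lower in DCA_CF than ULO at T1 without SL (6 with a pseudocount of 0.1, 17 in a fit of the compared groups alone and 7 with 1 of each copy-like set, against 11) and higher at T2 than T1 in RA (9 in a fit of the compared groups alone against 15). The cause was not tested. With the letters as a replicate block, 45 members were higher in DCA_CF at T1 without SL against 44. Leaving out 1 library moved no count by over 1.5 times, and that count ran from 39 to 42. The rule found 96 to 100 of the same genes without 1 library, 88 with a pseudocount of 0.1, 92 under RLE scaling and 94 under upper quartile scaling and with a total of 1000000. Of the named genes' differences, 846 of 858 recomputed kept their direction and side of the threshold, and 12 kept the direction only. Depth is unknown, so no counting interval or floor can be given for members near 0.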
